A study of Mus musculus with 9 samples.

Results

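Sertoli cell genes were described here in libraries of acetylated RNA from mouse testis. The set was 10 genes, Sox9, Wt1, Gata4, Amh, Inha, Dhh, Fshr, Cldn11, Clu and Rhox5, taken by symbol as markers and key genes of the cell, with no measured value in the rule. The count table listed 55401 genes and held a row for each of the 10. Poly(A) RNA of wild-type (WT) male mouse testis was sequenced in 3 groups of 3 libraries: input RNA with no antibody, RNA recovered with control IgG, and RNA recovered by acRIP, an immunoprecipitation with an antibody against N4-acetylcytidine (ac4C). The study kept WT ICR mice, and all 9 libraries were of that one genotype with no other treatment. The age of the testes behind these libraries was not given in the sources used here. Neither was whether the 3 libraries of a group came from separate animals or separate precipitations, so every p-value measures only the spread between libraries, which may be technical.

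ac4C is a modified cytidine that the acetyltransferase NAT10 places on RNA. Sertoli cells are the somatic cells inside the seminiferous tubule that surround, feed and support the germ cells, and they build the blood-testis barrier. SOX9 and WT1 set up and maintain the Sertoli cell fate, FSH from the pituitary drives the cell through its receptor, and the cell answers with hormones such as inhibin. Several of the 10 genes are active elsewhere in the testis too. Gata4 and Inha are also used by Leydig cells, the makers of testosterone, and Clu is used by many cell types.

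The 9 libraries differed in depth and in how many genes they reached. Counts on genes summed to between 22023925 and 31340090 in input, between 14647542 and 18786779 in IgG and between 16025779 and 18639134 in acRIP. At least 1 count was found on 28552 to 29642 genes in input, on 26204 to 26874 in IgG and on 22206 to 22402 in acRIP. Markers of germ cells dominated all libraries. Their 9 genes summed to 26343 to 30233 FPKM in input, 30526 to 31647 in IgG and 31028 to 33629 in acRIP. Prm1, Prm2 and Tnp2, at means of 8938, 8462 and 6832 FPKM in input, carried most of the sum there. The lowest of the 9 stood at 0.273 FPKM in input. FPKM is here the count divided by the gene's length and by the library's total count on genes, in the usual units, and it is the scale on which genes were compared with each other.

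The 10 Sertoli cell genes together reached 321 to 333 FPKM in input, 265 to 277 in IgG and 241 to 246 in acRIP. The 3 ranges did not overlap, and Clu carried most of each sum. The sum over 7 Leydig cell markers was 674 to 748 FPKM in input, 644 to 664 in IgG and 611 to 668 in acRIP, with no Leydig cell marker called in any comparison. In input of whole testis, fewer cells of a type and less RNA per cell cannot be told apart. The sums in IgG and acRIP also depend on which RNA was recovered.

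Levels within the set spread widely in input. Clu, which encodes the secreted chaperone clusterin, was the highest at 220.3 ± 5.07 FPKM (SD, n = 3). It was followed by Inha, the inhibin alpha subunit, at 59.2 ± 2.27 (SD, n = 3), and by Cldn11, a claudin of the barrier's tight junctions, at 36.9 ± 1.29 (SD, n = 3). Each of these stood clear of its neighbour, the libraries of one gene lying wholly above those of the next.

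Next came the transcription factors Wt1 at 4.90 ± 0.275 FPKM (SD, n = 3) and Sox9 at 2.17 ± 0.0488 (SD, n = 3) in input. Below them lay Dhh, a hedgehog ligand sent to Leydig and peritubular cells, at 1.51 ± 0.247 (SD, n = 3), and Fshr, the FSH receptor, at 1.20 ± 0.416 (SD, n = 3). The libraries of Dhh and Fshr overlapped, so their order was not settled. Gata4 stood at only 0.388 ± 0.0624 FPKM (SD, n = 3) in input.

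**Figure D1:**
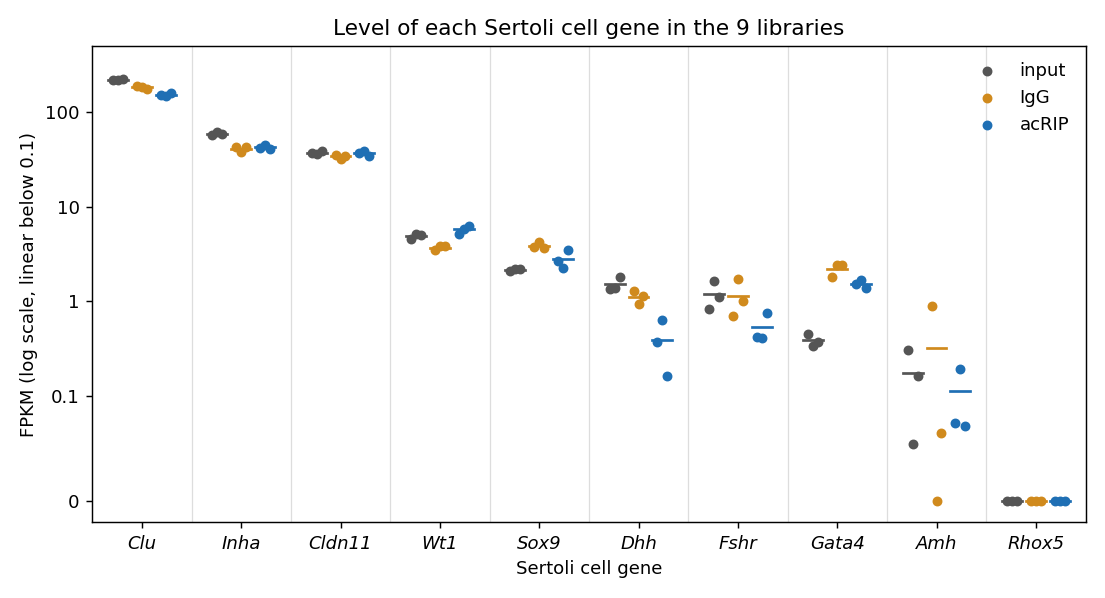
FPKM of the 10 Sertoli cell genes (vertical axis, log scale and linear below 0.1) in each of the 9 libraries, with genes ordered by their mean in input and a short line at the mean of each group. Clu lies highest in all 3 groups, Gata4 lies higher in IgG and acRIP than in input, and Rhox5 is at 0 throughout.

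Amh and Rhox5 ended the order. Amh encodes anti-Müllerian hormone, which immature Sertoli cells make in quantity and mature ones hardly at all. It had 16, 2 and 6 counts in the input libraries, 22, 0 and 2 in IgG and 2, 6 and 2 in acRIP. The groups overlapped, 1 IgG library held most of the IgG counts, and the gene was too thin to be tested.

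Rhox5, an X-linked homeobox gene that responds to androgen in Sertoli cells, had 0 counts in all 9 libraries. By counting error alone, 3 counts in a library would have been 0.127 to 0.272 FPKM, or 0.254 to 0.543 FPKM if both reads of 3 pairs were counted. The 0 was not read as a level here, however, since the gene has a second place in the reference. When 33 annotated transcripts of the 10 genes were aligned to GRCm38.p6, those of 9 genes matched 1 place, and each of the 2 Rhox5 transcripts matched 2. The longer one, of 754 bases, matched 98.5% of its bases on chromosome X (37804842 to 37808876 for the gene, plus strand) and 98.0% on a patch scaffold, a corrected stretch of the genome kept beside the chromosome. Only uniquely mapped reads were kept by the authors, and reads that fit both places equally well are not unique where the index holds both. Whether the index of the study held the patch scaffolds was not given in the sources used here.

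The genes beside Rhox5 behaved alike. All 6 Rhox genes and pseudogenes of the table that GRCm38.p6 also annotates on that patch, among them Rhox8, a second Sertoli cell gene of the cluster, had 0 counts in every library. Of the 36 Rhox entries without a copy on it, 13 were at 0, and the highest, Rhox13, reached 921 counts over the 9 libraries. Across the table, 186 of 284 protein-coding genes with a copy on any patch scaffold (65.5%) had no count at all. The share was 12.6% of 20805 protein-coding genes with no second copy found by symbol and 12.9% of 808 with a copy on some other scaffold. The part of the second copy in these zeros was not tested. Rhox5, at 0 in every library, did not pass the count filter and was left without a value in the comparisons.

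**Figure D2:**
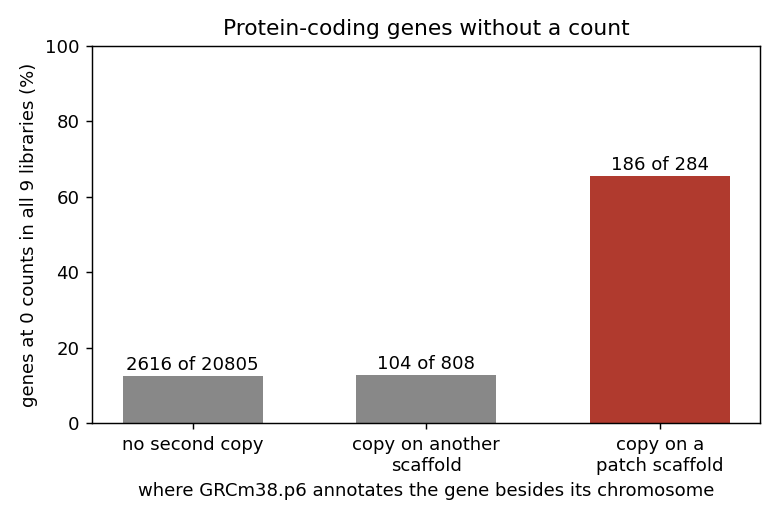
Share of protein-coding genes with 0 counts in all 9 libraries (percent, vertical axis, from 0). The first class is genes for which no second copy was found by symbol. The others have a copy on a scaffold that is no patch, or on a patch scaffold, the class of Rhox5. The bars stand at 12.6%, 12.9% and 65.5%.

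The first question was whether acRIP recovered any Sertoli cell transcript beyond both controls. None of the 8 genes that could be tested was called higher in acRIP than in IgG and input. A call is an edgeR quasi-likelihood result with adjusted p under 0.05 that also exceeds a fold of 2. Of these 8, Dhh and Fshr were called lower than in both controls. Among 22510 genes tested, 7.88% were higher than both and 17% lower than both.

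Against IgG, 2 of the 8 genes were called, both lower, where 32.4% of all genes tested were called, 11.5% higher and 20.9% lower, and 28.7% of those that are protein-coding, as all 10 genes are. The median log2 fold change was -0.31 over the 8 genes and -0.09 over all genes tested. At any fold, 7 of the 8 had an adjusted p under 0.05, beside 64.1% of all genes. Against input, 1 gene was called higher and 2 lower, beside 40.6% of all genes tested (17.7% higher, 22.9% lower, and 37.7% of protein-coding genes in either direction). The medians were -0.16 over the 8 genes and -0.10 over all. At any fold 7 of the 8 passed, beside 72.3%. The shares of Sertoli cell genes called were near the background and are no result about the set.

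**Figure D3:**
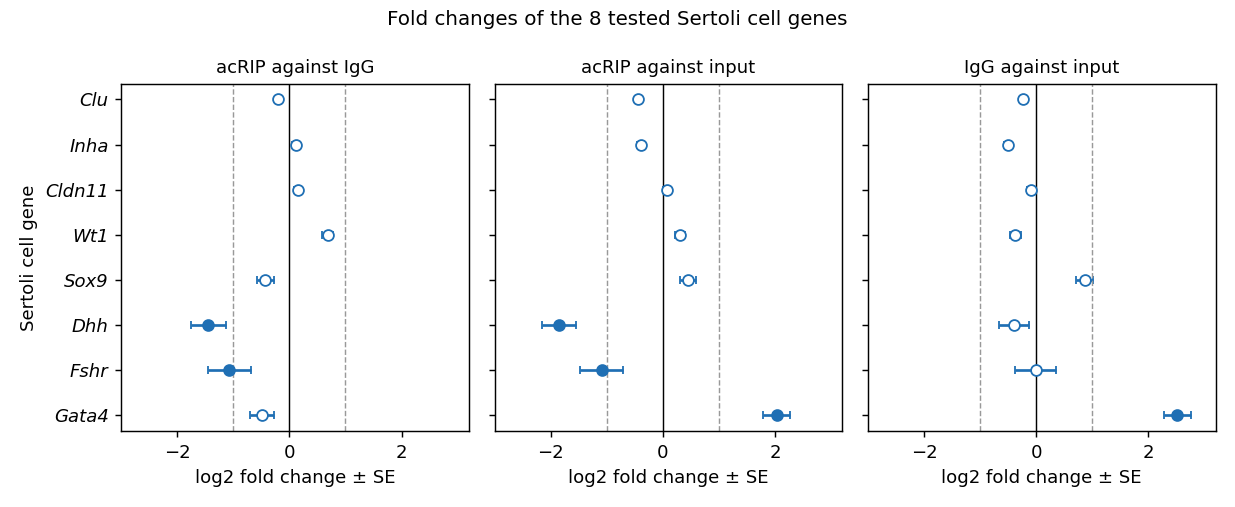
log2 fold change ± standard error of the 8 tested Sertoli cell genes in the 3 comparisons, with dashed lines at a fold change of 2 in either direction and filled points for genes called. Gata4 is filled on the right in both comparisons with input, and Dhh and Fshr are filled on the left in both comparisons of acRIP.

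Gata4, a zinc finger factor that acts with SOX9 and WT1 on Sertoli cell promoters, was the one gene called higher in acRIP than in input. It had 56, 29 and 32 counts in input, 103, 176 and 176 in IgG and 95, 122 and 90 in acRIP. These were 0.458, 0.337 and 0.369 FPKM in input, 1.80, 2.40 and 2.42 in IgG and 1.52, 1.68 and 1.37 in acRIP. Both precipitated groups lay wholly above input, and acRIP lay wholly below IgG. The log2 fold change from input to acRIP was 2.03 ± 0.24 (SE, edgeR adjusted p = 6.89e-09), a 4.10-fold difference. From input to IgG it was 2.52 ± 0.24 (SE, edgeR adjusted p = 7.49e-11), a 5.75-fold difference. acRIP was 1.40-fold lower than IgG (log2 -0.49 ± 0.21 SE, edgeR adjusted p = 0.0466). That last difference lay at the threshold: 10 of 18 alternatives, DESeq2 and the replicate block among them, put its adjusted p above 0.05, with a range from 0.0208 to 0.142.

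Sox9, the switch gene of testis determination, followed the same order at a smaller size. Its levels were 2.11, 2.20 and 2.20 FPKM in input, 3.80, 4.21 and 3.67 in IgG and 2.69, 2.26 and 3.47 in acRIP. Every IgG library was above every acRIP library, and every acRIP library was above every input library. IgG exceeded input by 0.87 ± 0.15 on the log2 scale (SE, edgeR adjusted p = 1.18e-05), which is 1.83-fold. acRIP exceeded input by 0.45 ± 0.15 (SE, edgeR adjusted p = 0.0108) and differed from IgG by -0.43 ± 0.15 (SE, edgeR adjusted p = 0.0157). None of these passed a fold of 2. Without IgG library 2, acRIP library 1 or acRIP library 2, the difference from IgG no longer passed at any fold (adjusted p up to 0.122), and without acRIP library 3 the difference of acRIP from input did not (adjusted p = 0.128).

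Wt1, a zinc finger factor that Sertoli cells need throughout life, took the opposite order of the controls. It stood at 4.59, 5.13 and 4.97 FPKM in input, 3.46, 3.81 and 3.82 in IgG and 5.17, 5.87 and 6.21 in acRIP. It was the only tested gene of the set whose acRIP libraries all lay above both controls. The excess over IgG was 0.68 ± 0.10 on the log2 scale (SE, edgeR adjusted p = 4.62e-07), or 1.61-fold. Over input it was 0.31 ± 0.09 (SE, edgeR adjusted p = 0.0037), or 1.24-fold. IgG lay below input by 1.29-fold (log2 -0.37 ± 0.10 SE, edgeR adjusted p = 0.00169). Both acRIP differences were smaller than the fold of 2 a call needs. The antisense gene Wt1os, which begins just outside Wt1 and was looked at because of its place, had 76 to 102 counts in input, 44 to 70 in IgG and 18 to 27 in acRIP.

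**Figure D4:**
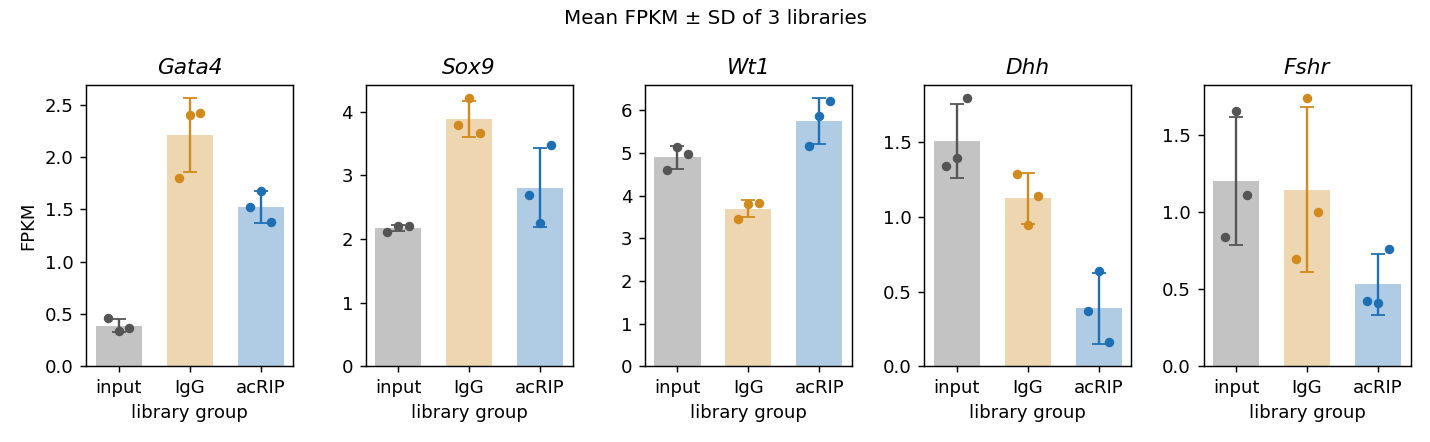
FPKM (vertical axes, from 0) of Gata4, Sox9, Wt1, Dhh and Fshr by library group. Bars are means of 3 libraries, error bars are SD and points are single libraries. Gata4 and Sox9 are highest in IgG, Wt1 is highest in acRIP, and Dhh and Fshr are lowest in acRIP.

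Dhh was called lower in acRIP than in both controls. Its counts were 185, 135 and 175 in input, 83, 78 and 93 in IgG and 26, 52 and 12 in acRIP. That is 1.34, 1.39 and 1.79 FPKM in input, 1.29, 0.944 and 1.14 in IgG and 0.369, 0.634 and 0.163 in acRIP. All acRIP libraries were below all controls, although relative to their mean they were more spread than the input or IgG libraries. The log2 difference was -1.45 ± 0.31 against IgG (SE, edgeR adjusted p = 0.000144), 2.74-fold, and -1.85 ± 0.30 against input (SE, edgeR adjusted p = 2.32e-06), 3.61-fold. IgG and input did not differ past the threshold (log2 -0.40 ± 0.27 SE, edgeR adjusted p = 0.224). With a test against a fold of 2 itself (glmTreat), the acRIP difference from IgG no longer passed (adjusted p = 0.0925). Part of Dhh is shared with the gene Rhebl1 on the same strand and with the antisense gene Gm49442, so its counts are uncertain. Rhebl1 had 160 to 238 counts in input, 82 to 135 in IgG and 175 to 214 in acRIP.

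Inha was below input with both antibodies. It stood at 57.5, 61.8 and 58.3 FPKM in input, 42.5, 37.6 and 42.4 in IgG and 42.1, 44.4 and 41.1 in acRIP. Both precipitated groups were below input, by 1.42-fold for IgG (log2 -0.50 ± 0.07 SE, edgeR adjusted p = 9.23e-08) and by 1.31-fold for acRIP (log2 -0.39 ± 0.07 SE, edgeR adjusted p = 3.79e-06). acRIP and IgG overlapped, and their difference of 0.11 ± 0.07 on the log2 scale did not pass (SE, edgeR adjusted p = 0.161), although it did with upper quartile scaling (adjusted p = 0.0429, in a range from there to 0.54).

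Fshr, the receptor through which FSH acts, rested on few counts. It had 62, 86 and 58 counts in input, 24, 77 and 44 in IgG and 16, 18 and 30 in acRIP, or 0.838, 1.65 and 1.11 FPKM, 0.694, 1.74 and 1.003 FPKM, and 0.423, 0.409 and 0.758 FPKM in the same order. acRIP lay wholly below input but overlapped IgG, whose second library was high. The log2 difference was -1.07 ± 0.39 against IgG (SE, edgeR adjusted p = 0.0172) and -1.09 ± 0.38 against input (SE, edgeR adjusted p = 0.0122), folds of 2.11 and 2.13. Without the second IgG library the first became -0.64, and without the second input library the other became -0.80, neither of which passed. Leaving out the first or the second acRIP library also ended both calls. IgG and input overlapped, with a difference of -0.01 ± 0.36 (SE, edgeR adjusted p = 0.979) whose error spans changes in either direction.

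Dhh and Fshr were called lower in the libraries that reached the fewest genes. Sums over markers of other cells are given beside them. The 5 macrophage markers summed to 6.81 to 7.74 FPKM in input, 7.56 to 9.38 in IgG and 3.33 to 4.68 in acRIP, with 2 of 5 called lower and 1 higher in acRIP than in IgG. The 5 markers of peritubular myoid cells summed to 16.6 to 17.5 FPKM in input, 22.1 to 24.3 in IgG and 23.1 to 25.6 in acRIP. The most abundant of them, at means of 13.9, 18.9 and 17.5 FPKM, carried most of each sum. In acRIP against IgG, 1 myoid marker was called higher and none lower. The 5 endothelial markers summed to 1.71 to 1.84, 1.31 to 1.64 and 2.42 to 3.21 FPKM in the same order. In acRIP, 1 of them was called higher and 1 lower than IgG, and 1 higher and 2 lower than input. The marker called higher stood at means of 0.278, 0.107 and 1.45 FPKM, in that order of groups. Precipitation acted on RNA already isolated from testis, and whether the 3 groups shared the same tissue was not given in the sources used here. The part of cell makeup between tissues or of gene detection in the values of Dhh and Fshr was not tested.

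Neither Cldn11 nor Clu, the abundant junction and secreted products, reached a fold of 2 in any comparison. Cldn11 stood at 36.6, 35.8 and 38.4 FPKM in input, 35.6, 32.3 and 34.2 in IgG and 36.8, 38.6 and 34.7 in acRIP. acRIP overlapped both controls. It exceeded IgG by 1.12-fold (log2 0.16 ± 0.07 SE, edgeR adjusted p = 0.0379, and from 0.0082 to 0.159 under the alternatives, 6 of 18 of them not passing), and its difference from input did not pass (log2 0.07 ± 0.07 SE, edgeR adjusted p = 0.33). Clu stood at 217, 218 and 226 FPKM in input, 187, 182 and 176 in IgG and 152, 149 and 158 in acRIP. The 3 groups were separate, and acRIP was 1.36-fold below input (log2 -0.44 ± 0.03 SE, edgeR adjusted p = 6.92e-13) and 1.15-fold below IgG (log2 -0.20 ± 0.04 SE, edgeR adjusted p = 1.18e-05).

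The IgG libraries also changed the order of levels. In IgG, Sox9 at 3.89 ± 0.283 FPKM and Wt1 at 3.70 ± 0.204 (SD, n = 3) overlapped, whereas in input and in acRIP Wt1 lay clear above Sox9. The overlap depends on the gene length used. The deposited length of Wt1 is 6195 bases, while its longest coding transcript has 3090, and for Sox9 both are 4135. With the shorter length, Wt1 would stand higher relative to Sox9 in every group. Gata4 passed Dhh and Fshr in both precipitated groups. Of the 8 tested genes, Gata4 was the one called between IgG and input, beside 20.7% of all genes tested (13.5% higher, 7.22% lower, and 19.4% of protein-coding genes in either direction). At any fold 5 of the 8 passed, beside 51.9%. The medians were -0.17 over the set and -0.01 over all genes.

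The study's own definition of an ac4C(+) transcript uses FPKM, with a ratio over 2 against both IgG and input after adding 1 to each mean, taken here together with an unadjusted limma p under 0.05. No gene of the set with a count met the FPKM definition with the limma p, and Rhox5 had no value. Of 35699 genes with any count, 703 met it (1.97%), which is not the study's own list because the test differs. The highest ratios in the set were 1.44 for Wt1 over IgG and 1.82 for Gata4 over input. The added value of 1 pulls the ratios of low genes such as Gata4, Fshr, Dhh and Amh toward 1.

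The cytidines of the transcripts themselves were looked at next, since ac4C sits on cytidine. The longest coding transcript of each gene was read from the GENCODE vM21 annotation. The C content ran from 19.4% in Rhox5 to 34.1% in Amh, and GC content ran from 46.6% in Fshr to 65.5% in Amh, with a median GC of 49.9% over 15514 tested protein-coding genes. Inha was at 59.7% GC and Gata4 at 57.4%, while Sox9 at 49.3% was close to that median.

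An 8-letter word of the form CNCAGNNC was searched on the transcript strand, with A, C or T at its second and seventh letters and C or G at its sixth, 18 words in all. The study gives it as a preferred ac4C sequence of testis. It was derived from these libraries, so a match is a description and no independent evidence of a site. The word occurred 19 times in 7 of the 10 transcripts, 10 times in coding sequence and 9 times in a 3′ UTR, and 3 transcripts, those of Fshr, Cldn11 and Rhox5, had none. Of all 21812 protein-coding genes, 74.4% had at least 1 match, and 77.5% had 1 on the opposite strand. Gata4 had 5 matches, where tested transcripts within 10% of its length had a median of 2. Sox9 (3) and Wt1 (2) equalled the median of transcripts of their length. Inha (3 against 1), Clu (2 against 1) and Amh (2 against 1) lay above it, and Dhh (2 against 3), Fshr (0 against 2) and Cldn11 (0 against 1) lay below it. One match is printed for each of the 4 genes with a match whose levels differed most between groups, in capitals within 24 bases of the transcript strand written as DNA.
Gata4: gctgcaagCACAGCACagtgaggc
Sox9: ctggcgccCCCAGCCCcaccatgt
Wt1: gccggcgtCTCAGCACacgctccg
Dhh: cctgcttgCCCAGCCCaccaaggt
These lie on GRCm38 at chr14:63200111-63200134 (minus strand, exon 7 of 7, 3′ UTR of Gata4), chr11:112782640-112782663 (plus strand, exon 1 of 3, coding sequence of Sox9), chr2:105126844-105126867 (plus strand, exon 1 of 10, coding sequence of Wt1) and chr15:98893601-98893624 (minus strand, exon 3 of 3, 3′ UTR of Dhh). Sox9 and Dhh carry the same 8 letters, CCCAGCCC, and differed in direction between acRIP and input. Fshr, with no match, and Dhh, with 2, were both lower in acRIP. The printed site of Dhh lies within the spans of Rhebl1 and Gm49442. Whether matches go with recovery was not tested.

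The other Sertoli cell genes, in 5 lists by role, gave the frame for these 10 and were chosen for what they are known to do. Their counts stand beside the shares of all genes tested: 11.5% higher and 20.9% lower with a median of -0.09 for acRIP against IgG, 17.7% and 22.9% with -0.10 for acRIP against input, and 13.5% and 7.22% with -0.01 for IgG against input. Among 13 further transcription factors of the Sertoli cell and of sex determination, 12 were tested, and acRIP against IgG gave 2 calls higher and 2 lower with a median of -0.31. Against input it gave 2 in each direction with 0.16, and IgG against input gave 3 higher and 2 lower with 0.08. The most abundant in input were Nr0b1, a nuclear receptor, at 12.1 FPKM, Nr5a1, the steroidogenic factor SF-1, at 3.76, and Gata1 at 3.13. None of them was called in any comparison. The genes called, named after their values were seen, were Zfpm1 and Sox8 (higher) and Lhx9 and Cbx2 (lower). Zfpm1 encodes FOG1, a partner of GATA factors, and was the one of the list called higher than both controls, at 28 to 44 counts in input, 78 to 135 in IgG and 156 to 314 in acRIP. Its log2 difference was 1.27 ± 0.22 against IgG (SE, edgeR adjusted p = 7.63e-06) and 3.36 ± 0.25 against input (SE, edgeR adjusted p = 1.23e-13). Cbx2, a Polycomb protein needed for testis determination, had 80 to 110 counts in input, 12 to 34 in IgG and none in acRIP, which puts acRIP at least 6.99-fold below IgG when each of its libraries is set to 3 counts, a bound of 3.49-fold at 3 read pairs.

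Among 11 further ligands and secreted proteins, 9 were tested, and acRIP against IgG gave 1 call in each direction with a median of -0.15. Against input it gave 2 higher and 1 lower with -0.44, and IgG against input gave 1 higher and none lower with -0.14. Cst9 and Cst12, cystatin family genes, and Ptgds, a prostaglandin synthase, stood in input at 276, 222 and 274 FPKM, the same range as Clu. All fell in acRIP against input without reaching a fold of 2, by 0.48 ± 0.05 for Cst9, 0.66 ± 0.06 for Cst12 and 0.44 ± 0.04 for Ptgds on the log2 scale (SE, edgeR adjusted p = 1.8e-09, 5.41e-11 and 6.2e-12). Clu had moved by -0.44 there. The genes called against IgG, named after their values were seen, were Gdnf and Trf. Gdnf, the growth factor that keeps spermatogonial stem cells, was higher at 30 to 50 counts against 4 to 14. Trf, the iron carrier transferrin, was lower at 12 to 36 counts against 107 to 123. Both were also called against input, Gdnf higher (log2 2.37 ± 0.54 SE, edgeR adjusted p = 0.000253) and Trf lower (log2 -2.91 ± 0.26 SE, edgeR adjusted p = 1.01e-11).

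Of 12 genes of the barrier and its junctions, all tested, acRIP against IgG gave no call higher and 2 lower, Tjp1 and Jam3, with a median of -0.16. Against input, acRIP gave 3 higher and 1 lower, Cdh2, with a median of -0.01, and IgG gave 3 higher and none lower with 0.17. The 3 higher were Espn, Cldn3 and Ctnnb1 both times. Tjp1, Jam3, Cdh2, Espn and Ctnnb1 are named after their values were seen. Cldn3, a claudin of newly formed barrier, stood at 11.3 FPKM in input, 31.4 in IgG and 24.4 in acRIP. Cldn5 and F11r, at 11.37 and 10.96 FPKM in input, were not called in any comparison. Like Gata4, Cldn3 was higher in both precipitated groups than in input, and acRIP was below IgG (log2 -0.32 ± 0.10 SE, edgeR adjusted p = 0.00822).

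The receptors and mediators that answer the ligands of the set, and those that carry the FSH signal, were mostly low. Of 18, 16 were tested, and acRIP against IgG gave 1 call higher and 6 lower with a median of -0.60. Against input it gave 2 higher and 4 lower with -0.02, and IgG against input gave 4 higher and none lower with 0.62. The gene called higher in acRIP than in IgG was also called higher than in input. Amhr2, the AMH receptor, stood at 90.6, 82.9 and 89.7 FPKM in input, IgG and acRIP, far above Amh itself, and none of its differences passed a fold of 2. Prkaca, the catalytic subunit of protein kinase A, was at 26.4, 22.5 and 22.4 FPKM and Acvr2a, an activin receptor, was at 2.99, 3.54 and 2.63, neither of them called. Gli2, a transcription factor of the hedgehog pathway downstream of Dhh, named after its values were seen, had 57 to 75 counts in IgG, 4 to 10 in input and none in acRIP, which puts acRIP at least 20.95-fold below IgG on the same floor of 3 counts, or 10.48-fold at 3 read pairs.

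Of 8 further Sertoli cell markers, 6 were tested, and acRIP against IgG gave 1 call higher, Hsd17b1, and 1 lower, Fstl3, both named after their values were seen, with a median of -0.34. Against input it gave 2 higher and 1 lower with -0.11, and IgG against input gave 1 higher and none lower with -0.13. Hsd17b1, on 24 to 62 counts in acRIP, was higher than both controls. Its log2 difference was 1.53 ± 0.47 against IgG (SE, edgeR adjusted p = 0.00514) and 1.09 ± 0.44 against input (SE, edgeR adjusted p = 0.0267). Fstl3 was lower than both. Tsx, an X-linked testis gene, stood at 38.2, 37.1 and 31.2 FPKM in input, IgG and acRIP and Vim, the filament protein vimentin, at 4.66, 6.48 and 4.40, and neither was called. Aard, a Sertoli cell marker of little known function, rose from 6.56 FPKM in input to 47.3 in IgG and 54.5 in acRIP. The log2 difference from input was 2.87 ± 0.10 for IgG (SE, edgeR adjusted p = 2.28e-22) and 3.13 ± 0.10 for acRIP (SE, edgeR adjusted p = 2.01e-23), and acRIP exceeded IgG by only 0.26 ± 0.08 (SE, edgeR adjusted p = 0.00749). Aard thus shared with Gata4 a gain over input that was present with the control antibody too.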

How the data were processed

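Per the sources, poly(A) RNA was precipitated with an ac4C antibody or IgG beside an ac4C probe of beta-globin sequence, and libraries were made by Smart-seq2, which primes on the poly(A) tail and amplifies. Reads were trimmed with Trim Galore 0.6.7, aligned to mm10 with STAR 2.7.10a and counted with featureCounts 2.0.2, keeping uniquely mapped reads. The authors deposited raw counts per gene. Strand setting, annotation release and whether reads or pairs were counted were not given in the sources used here. Of low member values, 23 of 28 between 1 and 100 counts were even. Amplified reads are not independent molecules, so floors cover counting error only. The SE and SD values cover only the spread between libraries.

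Of 55401 IDs, 54349 matched GENCODE vM21 with version, 792 (Wt1 among them) without, and 260 did not. edgeR 4.0.16 was fitted to all 9 libraries (filterByExpr, TMM, 1 mean per group, quasi-likelihood test, Benjamini-Hochberg over 22510 genes); calls needed an adjusted p under 0.05 and a fold over 2. FPKM was made here from each count, the deposited gene length and the summed counts of the library. The FPKM definition was accompanied by limma 3.58.1 on log2(FPKM + 1). DESeq2 1.42.0, other scalings, filters, a replicate block, glmTreat and leaving out each library were alternatives. Transcripts were aligned with minimap2 2.31-r1302. The fit was tested on simulated data. The 10 genes and the lists were chosen with earlier results of these data known. Beyond the 10, the text names at most the 3 genes of a list highest in input, and others only where it says so. One gene of a list is not reported here by name.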

Additional observations from a re-analysis of the deposited data

How the results depend on the processing

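All 3 counts of called Sertoli cell genes stayed the same under DESeq2, under the other scalings and under both count filters. Against IgG, 2 genes were called. This count was 0 with glmTreat and 1 to 2 when single libraries were left out: Fshr was lost without IgG library 2, acRIP library 1 or acRIP library 2. Against input, Fshr was lost without input library 2 (-0.80), acRIP library 1 (-0.95) or acRIP library 2 (-0.92), and with glmTreat (adjusted p = 0.462). Of 456 alternative fold changes, 441 kept their direction and their status as called or not called, 9 lost the call and 6 changed sign, none of the last called. For adjusted p under 0.05 at any fold, glmTreat apart, 28 of 432 alternative values lay on the other side, in 8 of 24 differences: those of Sox9, Gata4, Cldn11, Inha and Fshr between acRIP and IgG, of Sox9 and Fshr between acRIP and input, and of Cldn11 between IgG and input. Cldn11 in acRIP against input was -0.01 with library totals alone. Fshr in IgG against input was 0.01 with at least 10 counts in every library, 0.04 with counts halved, and from -0.44 to 0.27 with single libraries left out (0.27 without input library 2, 0.25 without IgG library 1, 0.09 without IgG library 3). The summed FPKM of the set became 318.4 in input and 251.0 in acRIP with TMM-scaled totals, and 286.4 in IgG and 274.7 in acRIP with totals that leave out loci resembling ribosomal RNA; the causes were not tested.

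Deviations from the group means were hardly correlated between libraries of the same number (from -0.00659 to 0.0351) or of different numbers (from -0.0295 to 0.0271). Values this small, over so few libraries, cannot settle whether the numbers mark a shared preparation. With the replicate number as a block, 2, 3 and 1 Sertoli cell genes were called against IgG, against input and between the controls, the same calls as without it, while the difference of Gata4 between acRIP and IgG no longer passed at any fold (adjusted p = 0.0551). Over all genes, requiring at least 10 counts in every library left 1200 higher and 1427 lower against IgG, in place of 2590 and 4701. Against input it left 2495 and 1852 in place of 3984 and 5145, and between the controls 1906 and 611 in place of 3028 and 1626, where glmTreat gave 1724 and 563. Depth limits Amh, Fshr, Dhh and Gata4, whose values rest on under 200 counts in each library.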
